A study of Mus musculus with 22 samples.

Results

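The genes described here are the S6 kinases and their substrates: 10 genes, chosen by name, out of 55401 gene identifiers in the deposited count table. They were Rps6kb1 and Rps6kb2, which encode S6K1 and S6K2; the substrate genes Rps6, Eif4b, Pdcd4 and Eef2k; the p90 ribosomal S6 kinase (RSK) genes Rps6ka1, Rps6ka2 and Rps6ka3; and Rps6kc1, a more distant relative. All 10 passed the filter on low counts in every comparison. RNA was sequenced from 22 cultures of mouse embryonic fibroblasts (MEFs), primary cells prepared from C57BL/6 embryos and passaged serially in 21% oxygen. The S6K1 set held wild-type (WT) cells at passage 3 (n = 4) and passage 8 (n = 4) and S6K1 knockout (KO) cells at passage 8 (n = 3). The S6K1/S6K2 set held WT cells at passage 3 (n = 4) and passage 8 (n = 4) and S6K1/S6K2 double knockout (DKO) cells at passage 8 (n = 3). Passage 3 is called early and passage 8 late below. No S6K2 single knockout and no early KO or DKO library was analysed here. KO cells had WT littermates as controls, whereas DKO embryos came from S6K2-/- parents and their WT controls from WT mothers of an earlier breeding stage, so genotype and litter cannot be told apart in the S6K1/S6K2 set.

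S6K1 and S6K2 are serine/threonine kinases of the AGC family that act below mTORC1, the nutrient-sensing kinase complex. mTORC1 phosphorylates a threonine in their hydrophobic motif, and the active kinases then phosphorylate proteins of the translation machinery. These include ribosomal protein S6, the helicase cofactor eIF4B, the helicase inhibitor PDCD4, which is degraded once phosphorylated, and eEF2K, the kinase that slows elongation and is inhibited by the phosphorylation. RSKs are activated by ERK rather than mTORC1 and share several of these sites. The data measured mRNA only, so they hold no value for protein or for phosphorylation.

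For each substrate gene, 1 coding stretch with the arrangement that S6 kinases favour is shown. The stretches were found by searching for that arrangement, so that all 4 hold it is not a result. A search of the translated coding sequences for an arginine, any residue, an arginine, any 2 residues and a serine or threonine found 1 match in Rps6, 5 in Eif4b, 2 in Pdcd4 and 1 in Eef2k, 2 each in Rps6ka1 and Rps6ka2 and 1 in Rps6ka3, and no match in Rps6kb1, Rps6kb2 or Rps6kc1. The pattern was thus held by 3 of the 6 members that are not listed as substrates, too. Below, 1 match per gene is given on the mRNA strand, from GENCODE vM1 transcripts (NCBIM37). The codons for both arginines and the serine are in capitals. Where a gene held several matches, the first is shown for Pdcd4 and the last for Eif4b. The serine is codon 236 of Rps6, 422 of Eif4b, 67 of Pdcd4 and 365 of Eef2k.
Rps6: aagAGAcgtAGGctgtccTCActgagagct
Eif4b: gaaCGGtcaAGGacaggaAGTgagtcatcg
Pdcd4: agaCGActgCGGaaaaatTCAtcccgggac
Eef2k: cccCGCataAGGacactcTCTagcagccgg
The hydrophobic motifs of both kinases follow, with the threonine codon in capitals. It is codon 412 of Rps6kb1 and 388 of Rps6kb2.
Rps6kb1: gtctttctgggttttACAtatgtggctcca
Rps6kb2: gccttcctgggctttACAtatgtggcacct

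The Rps6kb1 and Rps6kb2 coding sequences were 65.5% identical base by base, and their longest shared run over the whole transcripts was 14 bases. No window of 50 bases, the read length, was shared between any 2 of the 5 genes Rps6kb1, Rps6kb2, Rps6ka1, Rps6ka2 and Rps6ka3, and every such window of the Rps6kb1, Rps6kb2 and Rps6ka1 transcripts occurred at its own gene alone in NCBIM37. A read that matches one of these transcripts exactly over its whole length could therefore not belong to another of them. Other members were less well placed. Of the 50-base windows of Rps6, 94.7% also occurred elsewhere in the genome, which holds processed copies of it, so the Rps6 count rests on how such reads were treated. The share was 34.4% for Rps6ka2, 0.3% for Eef2k and 418 of 3804 windows for Eif4b. Values for Rps6, Rps6ka2 and Eif4b are uncertain to that extent.

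In RefSeq GRCm38.p6 coordinates Rps6kb1 (ENSMUSG00000020516.15) lies at chr11:86498869-86544885 and Rps6kb2 (ENSMUSG00000024830.17) at chr19:4156792-4163383. The substrates lie at chr4:86854099-86857367 (Rps6), chr15:102073773-102097173 (Eif4b), chr19:53892231-53937592 (Pdcd4) and chr7:120842642-120907219 (Eef2k). The relatives lie at chr4:133847290-133887797 (Rps6ka1), chr17:7088971-7303315 (Rps6ka2), chrX:159255665-159368244 (Rps6ka3) and chr1:190772879-190913010 (Rps6kc1). Counts cover the exons of a gene as a whole, so no value below says which exons of a deleted gene gave reads.

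Libraries held 10742454 to 17314832 counts. Levels are CPM (counts scaled to a common library total) after TMM scaling within a set, and changes are log2 fold changes from the quasi-likelihood test of edgeR, with p-values adjusted over all genes tested (Benjamini-Hochberg) and a threshold of 0.05. The 10 fibroblast markers summed to 15550 to 36680 CPM in each library. The 18 macrophage markers were not absent from any group: they summed to 498 to 2133 CPM in early WT libraries, 5490 to 13820 in late WT, 3710 to 5016 in KO and 1013 to 3698 in DKO libraries, and none of the 18 was at 0 in any library. RNA of Y-linked genes was present in 2 of 4 early WT, 1 of 4 late WT and 3 of 3 KO libraries of the S6K1 set, and in 2 of 4, 3 of 4 and 1 of 3 libraries of the S6K1/S6K2 set. Y-linked RNA comes from male cells, so the sexes were unevenly spread over the late WT, KO and DKO groups. Sex and genotype therefore cannot be fully told apart in either set. The cultures are bulk samples, so fewer cells of a type and less RNA per cell cannot be told apart.

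The S6 kinase genes themselves were the first check of the labels. Rps6kb1 stood at 55.6, 73.6, 55.1 and 64.7 CPM in the late WT cultures of the S6K1 set and at 22.3, 22.6 and 13.9 CPM in the KO cultures. Every KO library was below every WT library. The fitted level in KO cells was 31.5% of that in WT cells (95% interval 23.8% to 41.7%), a log2 change of -1.67 with a standard error (SE) of 0.19 (adjusted p = 0.00744, edgeR). In the S6K1/S6K2 set Rps6kb1 stood at 78.9, 68.4, 66.2 and 90.8 CPM in late WT and at 23.3, 21.0 and 28.9 CPM in DKO cultures. The groups again did not overlap, and DKO cells held 32.1% of the WT level (95% interval 25.5% to 40.4%; log2 change -1.64, SE 0.15, adjusted p = 0.000786, edgeR). The difference between the sets in this loss was 0.04 on the log2 scale (SE 0.23, adjusted p = 0.965, edgeR), with a 95% interval from -0.44 to 0.52. Both deleted lines therefore kept 187 to 458 Rps6kb1 counts per library.

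Rps6kb2 was lost further. It stood at 17.0, 11.6, 11.6 and 14.3 CPM in late WT cultures of the S6K1/S6K2 set and at 0.600, 0.497 and 1.39 CPM in DKO cultures, which is 7, 5 and 22 counts. The third DKO library held the most Rps6kb2 and the most Rps6kb1 of the 3. DKO cells kept a fitted 6.5% of the WT level (95% interval 4.0% to 10.5%), a log2 change of -3.95 (SE 0.32, adjusted p = 0.000412, edgeR). In KO cells, in which Rps6kb2 is intact, its change was 0.30. The difference between the sets was -4.24 on the log2 scale (SE 0.37, adjusted p = 4.01e-06, edgeR), and Rps6kb2 was the 1 gene of 14886 (0.00672%) past the threshold in that comparison. Without DKO replicate 1 the count was 5, without late WT replicate 1 of the S6K1 set 3, and without late WT replicate 3 of the S6K1/S6K2 set 2. DESeq2 called 64 genes there, and 1626 had an unadjusted p below 0.05.

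**Figure D1:**
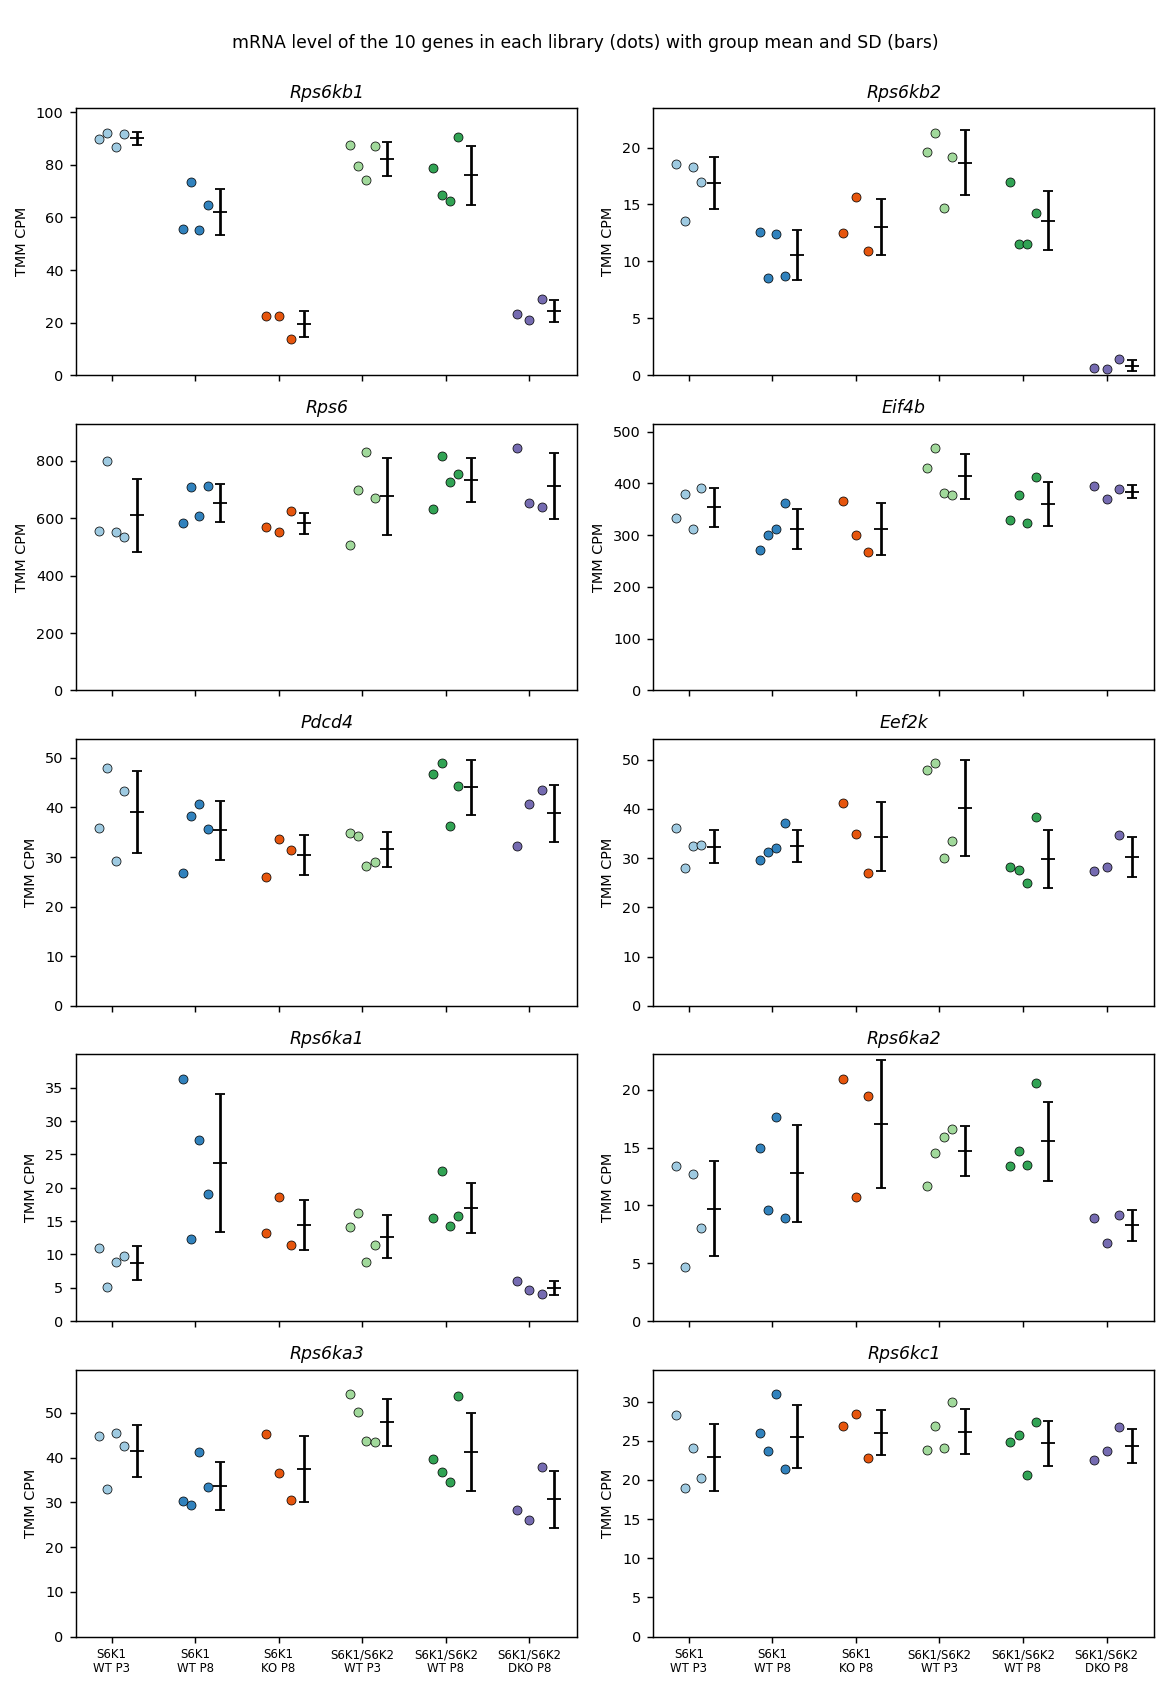
TMM-scaled CPM (vertical axes, from 0) of the 10 genes in the 22 libraries (dots, by group along the horizontal axis), with the mean and SD of each group as a bar beside the dots. Rps6kb1 sat between 13.9 and 28.9 CPM in KO and DKO libraries, below the lowest WT library at 55.1, and Rps6kb2 fell below 1.4 CPM in DKO libraries alone.

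Whether the remaining kinase was raised in KO cells was asked at the level of its mRNA. Rps6kb2 stood at 12.6, 8.52, 12.4 and 8.72 CPM in late WT and at 12.5, 15.7 and 10.9 CPM in KO cultures. The groups overlapped. The log2 change was 0.30 (SE 0.21, adjusted p = 0.656, edgeR), with a fitted KO level of 123.4% of WT and a 95% interval from 90.2% to 168.9%. At this number of cultures the interval held both no change and a rise to that upper bound. Over the 13 alternatives run, the log2 change of Rps6kb2 ran from 0.08 to 0.42, with none past the threshold. Leaving out 1 library at a time gave 0.14 to 0.42, so the lowest value came from another setting. Because Rps6kb1 fell in the same libraries, the share of Rps6kb2 in the summed S6 kinase mRNA moved: with counts divided by exon length it was 44.4%, 29.0%, 44.3% and 32.3% in late WT and 66.4%, 71.1% and 73.5% in KO cultures. The mean share rose from 37.5% ± 8.03 (SD, n = 4) to 70.3% ± 3.61 (SD, n = 3), a difference of 32.9 percentage points. In an exact two-sided permutation test p was 0.0571, the smallest that 35 splits of 3 against 4 libraries allow. The loss of Rps6kb1 raises this share by itself, so the test does not address a rise of Rps6kb2. Remaining reads of the deleted gene are counted in the share and in the sum. The summed S6 kinase mRNA was 11.5 ± 0.388 CPM per kb (SD, n = 4) in late WT and 7.58 ± 1.48 (SD, n = 3) in KO cultures, and the highest KO library (9.01) was below the lowest WT library (11.03).

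In DKO cultures the share of Rps6kb2 was 8.33%, 7.72% and 14.5%, against 43.1%, 37.3%, 38.1% and 35.7% in late WT of the same set. The mean difference was -28.4 percentage points (exact two-sided permutation p = 0.0571, again the smallest possible). The unequal loss of both deleted genes lowers this share by itself, so the test does not address any other change. The summed S6 kinase mRNA was 14.3 ± 2.13 CPM per kb (SD, n = 4) in late WT and 3.16 ± 0.670 (SD, n = 3) in DKO cultures. What was left in DKO cells was thus mostly Rps6kb1 sequence, and the share and sum there count reads of deleted genes only. With passage in WT cells the mean share went from 39.7% ± 3.90 to 37.5% ± 8.03 (SD, n = 4 each) in the S6K1 set (exact two-sided permutation p = 0.686) and from 44.4% ± 3.10 to 38.6% ± 3.21 (SD, n = 4 each) in the S6K1/S6K2 set (p = 0.0571, exact permutation test); the smallest p of these 4 against 4 comparisons is 0.0286. Adjusted over the 4 share tests (Benjamini-Hochberg), the permutation p-values were 0.0761 for 3 of them and 0.686 for the passage comparison of the S6K1 set. This adjustment counts the KO and DKO tests, in which the deletions move the share by themselves.

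**Figure D2:**
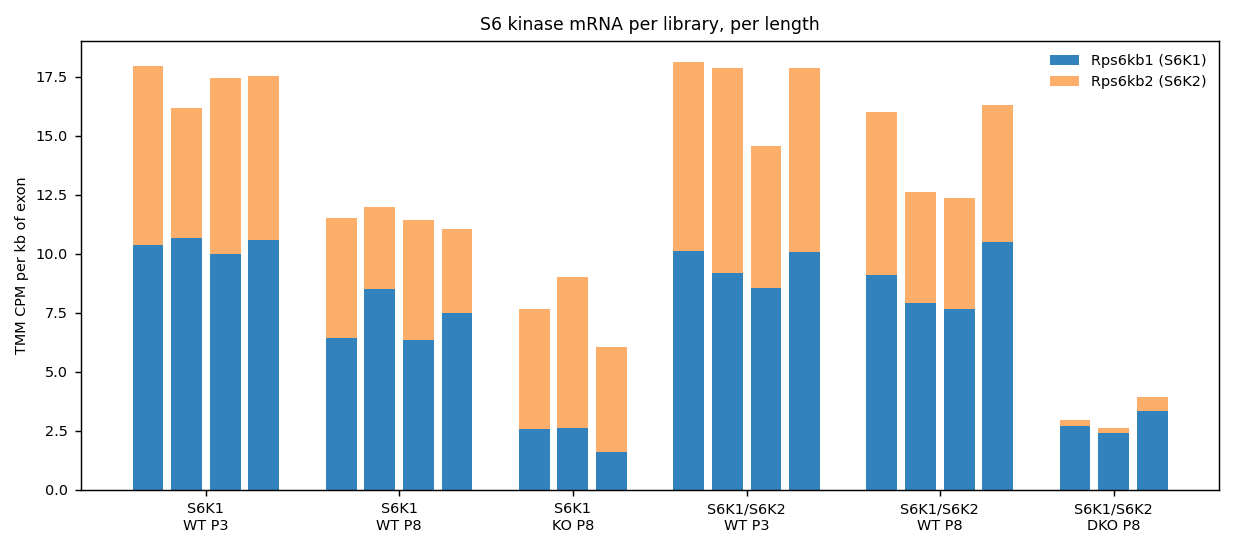
S6 kinase mRNA in each of the 22 libraries as stacked bars, Rps6kb1 in blue and Rps6kb2 in orange, in TMM-scaled CPM per kb of exon (vertical axis, from 0), by group along the horizontal axis. Summed bars reached 6.05 to 9.01 in KO and 2.62 to 3.91 in DKO libraries, and most of the KO bar was Rps6kb2 whereas most of the DKO bar was Rps6kb1.

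With passage, the S6 kinase genes of WT cells passed the threshold in 1 set. In the S6K1 set 3 of the 10 genes passed the threshold between late and early WT, where 12.9% of all genes did, and 2 of the 3 were the S6 kinases. Rps6kb1 stood at 90.0, 92.3, 86.7 and 91.6 CPM in early cultures, a spread of 2.8% of its mean, against 55.1 to 73.6 in late ones. It fell by 0.53 on the log2 scale (SE 0.16, adjusted p = 0.0498, edgeR). Rps6kb2 stood at 18.6, 13.6, 18.3 and 17.0 CPM in early cultures, all above the late range of 8.52 to 12.6, and fell by 0.68 (SE 0.19, adjusted p = 0.0389, edgeR). Both calls lay near the threshold. The Rps6kb1 call was lost without any 1 library other than late WT replicate 2 (adjusted p 0.0807 to 0.160), and the Rps6kb2 call without 6 of the 8 libraries, early replicates 1, 3 and 4 and late replicates 2, 3 and 4 (adjusted p 0.0548 to 0.105, edgeR).

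In the S6K1/S6K2 set neither kinase gene passed the threshold with passage. Rps6kb1 stood at 87.8, 79.5, 74.1 and 87.1 CPM in early WT cultures, which overlapped the late range of 66.2 to 90.8 (log2 change -0.11, SE 0.13, adjusted p = 0.607, edgeR). Rps6kb2 stood at 19.6, 21.3, 14.7 and 19.2 CPM in early cultures and 11.6 to 17.0 in late ones (log2 change -0.46, SE 0.23, adjusted p = 0.189, edgeR). The difference between the sets was not past the threshold for either gene: 0.39 (SE 0.21, adjusted p = 0.578) for Rps6kb1 and 0.18 (SE 0.30, adjusted p = 0.872, edgeR) for Rps6kb2. In that comparison 0 of the 10 genes passed in edgeR and in DESeq2, where 0.712% of all genes did in edgeR, and 2 of the 10, Rps6ka1 and Pdcd4, had an unadjusted p below 0.05.

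**Figure D3:**
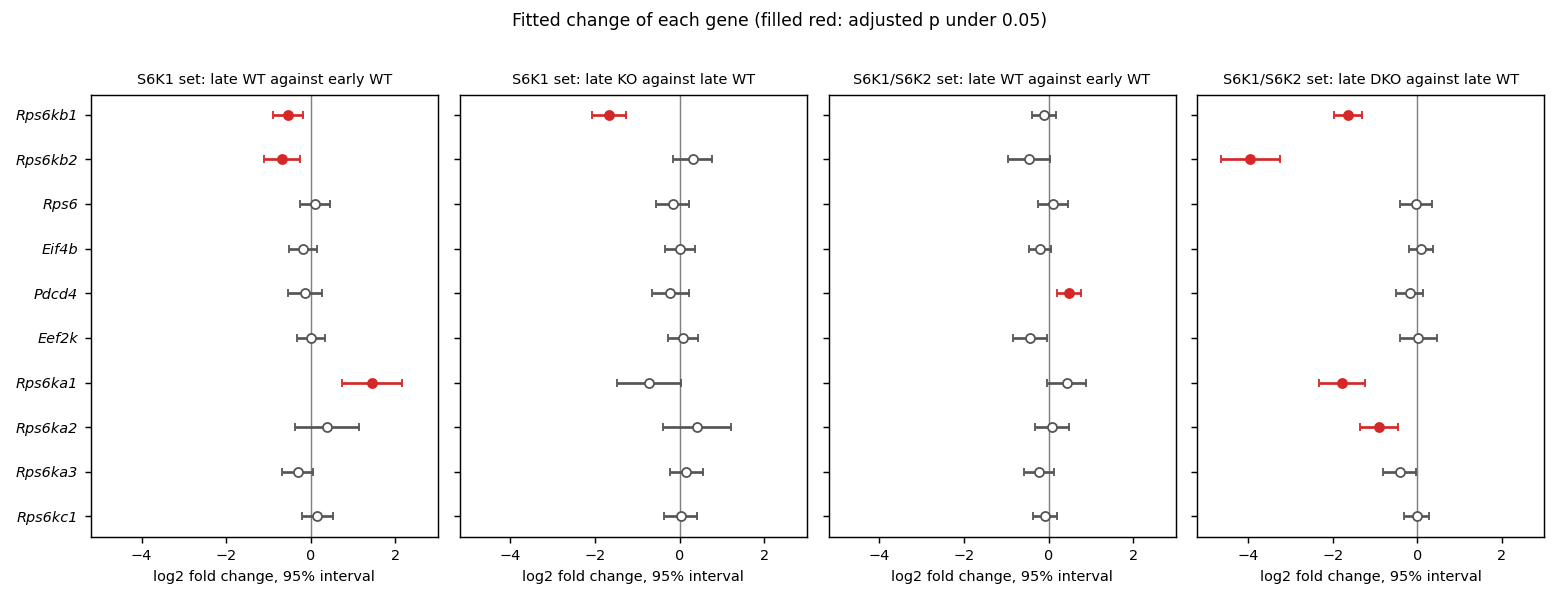
Fitted log2 fold change (horizontal axes) of each of the 10 genes in the 4 comparisons within a set, with its 95% interval; filled red points had an adjusted p below 0.05 in edgeR's quasi-likelihood test. Intervals of Rps6, Eif4b and Rps6kc1 spanned 0 in all 4 panels, and the lowest points were Rps6kb2 in DKO cells at -3.95 and Rps6ka1 at -1.78.

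No substrate gene passed the threshold with genotype. In KO cells 1 of the 10 genes passed, Rps6kb1, where 0.0425% of all genes did (6 of 14132; 261 in DESeq2 and 1499 at an unadjusted p below 0.05). In DKO cells 4 of the 10 passed, where 4.78% of all genes did, and none of the 4 was a substrate. They were both deleted genes and 2 RSK genes.

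Rps6, which encodes the ribosomal protein after which the kinases are named, ranged from 553 to 624 CPM in KO and 584 to 712 in late WT cultures, and from 639 to 845 in DKO and 632 to 817 in their late WT cultures. Its log2 change was -0.17 (95% interval -0.55 to 0.22) in KO and -0.04 (-0.42 to 0.34) in DKO cells. Eif4b, the helicase cofactor, ranged from 268 to 367 CPM in KO, 271 to 362 in late WT, 369 to 395 in DKO and 324 to 413 in late WT of that set. Its log2 changes were -0.0015 (-0.36 to 0.35) in KO and 0.09 (-0.19 to 0.37) in DKO cells. Eef2k, the elongation factor 2 kinase, changed by 0.08 (-0.27 to 0.43) in KO and 0.02 (-0.42 to 0.46) in DKO cells. Changes of these 3 genes beyond about 1.5-fold in either direction therefore lay outside their intervals in both comparisons.

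Pdcd4, whose product inhibits the helicase eIF4A, was the 1 substrate gene past the threshold with passage, and it was so in the S6K1/S6K2 set. It stood at 34.9, 34.3, 28.2 and 28.9 CPM in early WT cultures and at 46.8, 48.9, 36.2 and 44.3 in late ones. Every late library was above every early one, and the rise was 0.48 on the log2 scale (SE 0.13, adjusted p = 0.0363, edgeR). In this comparison 1 of the 10 genes passed, Pdcd4, where 13.2% of all genes did, so the count was no higher than the share over all genes. The call was lost without any 1 library other than late replicate 3 (adjusted p 0.0581 to 0.110, edgeR). In the S6K1 set Pdcd4 stood at 35.9, 48.0, 29.2 and 43.3 CPM in early and 26.9, 38.2, 40.7 and 35.7 in late WT cultures, which overlapped (log2 change -0.14, SE 0.18, adjusted p = 0.662, edgeR). The difference between the sets was 0.59 (SE 0.23, adjusted p = 0.369, edgeR). Pdcd4 was 25.9 to 33.7 CPM in KO and 32.3 to 43.5 in DKO cultures, with changes against late WT of -0.22 (SE 0.20) and -0.18 (SE 0.15), neither past the threshold.

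The other substrates did not pass with passage in either set. Eef2k stood at 47.9, 49.3, 30.0 and 33.6 CPM in early WT of the S6K1/S6K2 set, a spread that put 2 libraries well above the late range of 25.0 to 38.3, and its change was -0.43 (SE 0.19, adjusted p = 0.138, edgeR). Eif4b changed by -0.18 and -0.20 and Rps6 by 0.10 and 0.12 in the S6K1 and S6K1/S6K2 sets.

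Of the 3 RSK genes, Rps6ka1 and Rps6ka2 passed the threshold in at least 1 comparison and Rps6ka3 in none. Rps6ka1, which encodes RSK1, stood at 11.01, 5.19, 8.89 and 9.81 CPM in early and at 36.4, 12.4, 27.1 and 19.0 CPM in late WT cultures of the S6K1 set. Every late library was above every early one. The rise was 1.44 on the log2 scale (SE 0.33, adjusted p = 0.0133, edgeR). KO cultures held 13.2, 18.6 and 11.4 CPM, within or just below the late WT range (log2 change -0.72, SE 0.35, adjusted p = 0.503, edgeR). In the S6K1/S6K2 set Rps6ka1 stood at 14.1, 16.2, 8.82 and 11.4 CPM in early WT, 15.5, 22.5, 14.2 and 15.8 in late WT and 6.08, 4.67 and 4.11 in DKO cultures. The passage change was 0.43 (SE 0.22, adjusted p = 0.203, edgeR). DKO cells held a fitted 29.1% of the late WT level (95% interval 19.9% to 42.7%), a fall by 1.78 on the log2 scale (SE 0.25, adjusted p = 0.00423, edgeR), and each DKO library also lay below each early WT library. The Rps6ka1 calls in the S6K1 set with passage and in DKO cells were kept in all alternatives run.

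The median change of the macrophage markers had the sign of the Rps6ka1 change in every comparison within a set. Their order over the libraries of a group was shared in some groups and not in others. The summed CPM rested largely on Lyz2, whose group mean was 4824 CPM in late WT of the S6K1 set. In the S6K1/S6K2 set the Lyz2 mean was 743.6 CPM in early WT, 6991 in late WT and 1186 in DKO cultures. Orders and ranges of the sums may therefore follow Lyz2 more than the other markers. In late WT cultures of the S6K1 set the markers summed to 11410, 5490, 9653 and 6411 CPM, which is the order of Rps6ka1 in the same 4 libraries, and all 18 markers rose with passage there (median log2 change 2.98). In DKO cells all 18 had a negative change, 16 of them past the threshold, and the median change was -2.32. In KO cells all 18 were negative too, with a median of -0.86, beside -0.72 for Rps6ka1. None of the 18 passed the threshold there in edgeR, 3 did so in DESeq2, and 13 had an unadjusted p below 0.05. With passage in the S6K1/S6K2 set all 18 had a positive change, 17 of them past the threshold, with a median of 2.54, while the Rps6ka1 change was 0.43 and not past it. Their part in the Rps6ka1 result was not tested. The first DKO library held the most marker RNA of the 3 (3698 CPM against 1157 and 1013) and the most Rps6ka1. The other two DKO libraries lay within the early WT range of the same set for the markers (637 to 2133 CPM) while their Rps6ka1 lay below all 4 early WT libraries. Among those early WT libraries the order was not shared: the 2 with the lowest marker sums, 903 and 637 CPM, had the highest Rps6ka1. Nor was it shared in late WT of that set, where the markers summed to 10070, 13820, 11700 and 8142 CPM in the order of the Rps6ka1 values above, or in KO cultures, where they summed to 3710, 4395 and 5016 CPM.

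Rps6ka2, which encodes RSK3, stood at 13.4, 14.7, 13.5 and 20.6 CPM in late WT and at 8.91, 6.76 and 9.16 CPM in DKO cultures. The groups did not overlap, and the early WT cultures of the set (11.7 to 16.6 CPM) were also above every DKO library. DKO cells fell by 0.90 on the log2 scale (SE 0.20, adjusted p = 0.0271, edgeR), to 53.4% of WT (95% interval 39.2% to 72.7%). The call was lost without late WT replicate 2 or 4 or DKO replicate 2 or 3 (adjusted p 0.0575 to 0.140) and in fits on the 2 groups (adjusted p = 0.0626) and on all 6 groups (adjusted p = 0.138, edgeR). In the S6K1 set the gene varied widely within groups: it stood at 13.4, 4.67, 12.7 and 8.08 CPM in early WT, 14.9, 9.61, 17.6 and 8.89 in late WT and 20.95, 10.71 and 19.4 in KO cultures. Its KO change of 0.41 (SE 0.37, adjusted p = 0.741, edgeR) turned to -0.23 with the Y-linked level as a covariate, and the reason was not tested. The difference between the sets in the genotype effect was -1.30 (SE 0.44, adjusted p = 0.313, edgeR).

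Rps6ka3, the X-linked gene of RSK2, ranged from 25.9 to 38.0 CPM in DKO and 34.4 to 53.8 in late WT cultures, which overlapped (log2 change -0.42, SE 0.18, adjusted p = 0.229, edgeR). In KO cells its change was 0.16 (SE 0.18, adjusted p = 0.800, edgeR). Rps6kc1, which encodes a kinase-like protein with a phosphoinositide-binding domain, was the steadiest of the relatives: its group means ran from 22.9 to 26.2 CPM over the 6 groups, and its 4 changes within sets lay between -0.08 and 0.16. None of the RSK genes or Rps6kc1 rose past the threshold where an S6 kinase was deleted.

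**Figure D4:**
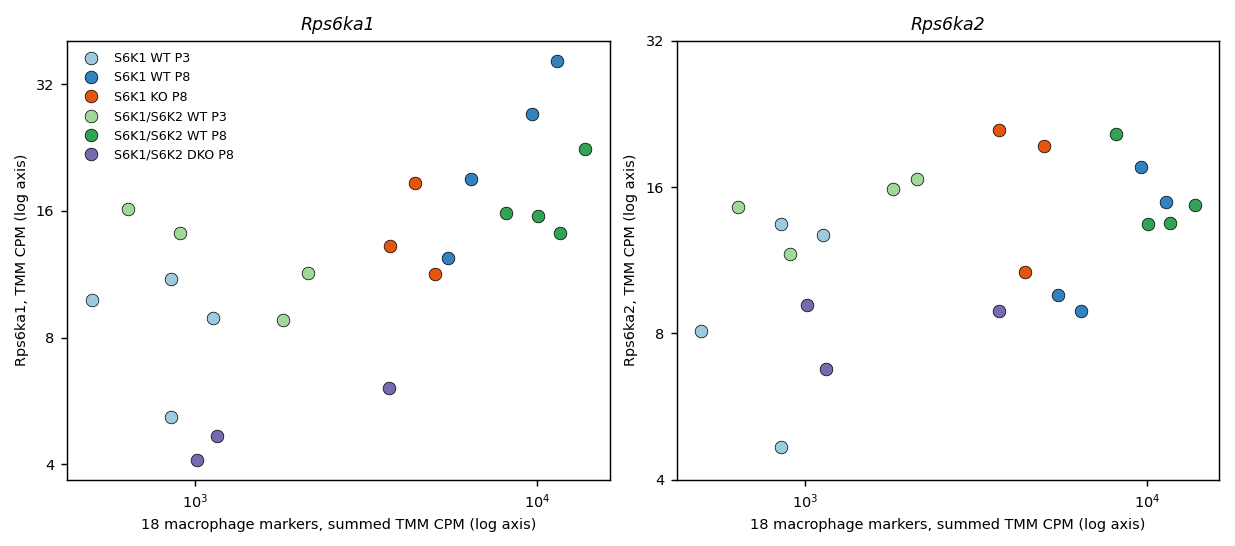
CPM of Rps6ka1 (left) and Rps6ka2 (right) against the summed CPM of 18 macrophage markers in the 22 libraries, both axes logarithmic, coloured by group. For Rps6ka1 the 3 DKO libraries sat lowest apart from 1 early WT library of the S6K1 set at 5.19 CPM, at marker sums of 1013 to 3698 CPM, and the 2 highest libraries, 36.4 and 27.1 CPM, had marker sums of 11410 and 9653.

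Compared per length, the members spanned a wide range of levels in early WT cultures of the S6K1 set. Rps6 was highest at 385 ± 79.4 CPM per kb of exon, followed by Eif4b at 91.7 ± 9.81, Pdcd4 at 15.3 ± 3.24, Rps6kb1 at 10.4 ± 0.291 and Rps6kb2 at 6.88 ± 0.937 (SD, n = 4 each). Rps6ka3 at 4.98 ± 0.693 and Eef2k at 4.51 ± 0.464 followed and were within their spread of each other, as were Rps6kc1 at 2.35 ± 0.436, Rps6ka1 at 2.05 ± 0.591 and Rps6ka2 at 1.71 ± 0.727 (SD, n = 4 each). In late WT cultures of that set Rps6ka1, at 5.57 ± 2.43, was among Rps6kb1 at 7.19 ± 1.02 and Rps6kb2 at 4.30 ± 0.910 (SD, n = 4 each). In DKO cultures Rps6kb2 was lowest at 0.338 ± 0.199, and Rps6kb1 at 2.82 ± 0.473 lay near Rps6kc1 at 2.49 ± 0.223 (SD, n = 3 each). The order depends on the length used. The longest coding transcript held 3995 bases for Rps6kc1, 5531 for Rps6kb1 and 2296 for Rps6ka1. Their exons held 9741, 8658 and 4258 bases. Places in the order that hang on these lengths, such as that of Rps6kc1, are therefore uncertain. Exon lengths were those of GENCODE vM1, and whether reads that also match copies of Rps6 were dropped from its level is not given in the sources used here.

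The genes whose log2 CPM followed Rps6kb1 most closely over the 22 libraries, among 14885 genes, were Suv420h2 (Pearson r = 0.85), Gpt (0.85) and 4632419I22Rik (0.84). For Rps6kb2 they were Fanca (0.88), Cdt1 (0.86) and Mcm10 (0.85). These are descriptions over libraries that share groups, genotype and depth. The 7 cycling markers, which mark dividing cells, summed to 135 to 146 CPM in DKO and 212 to 259 in late WT cultures. In DKO cells 5 of the 7 fell past the threshold, where 4.78% of all genes passed it. With passage in the same set 4 of the 7 fell past it, where 13.2% of all genes passed. All 7 were negative in KO cells and 6 of the 7 with passage in the S6K1 set, none past the threshold.

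Other genes of the pathway are read against the 12.9% and 13.2% of all genes called with passage in the S6K1 and S6K1/S6K2 sets. Of 3 further members of the S6 kinase family tested, Rps6ka6 (RSK4) fell with passage in the S6K1 set, from 4.43 ± 0.611 to 2.21 ± 0.447 CPM (SD, n = 4 each; log2 change -1.0006, SE 0.29, adjusted p = 0.0427, edgeR), and none passed in KO or DKO cells in either tool, where 0 and 1 had an unadjusted p below 0.05. Of 6 other AGC kinase genes, Sgk1, a kinase induced by serum and glucocorticoids, rose with passage in the S6K1/S6K2 set from 111 ± 14.5 to 213 ± 72.4 CPM (SD, n = 4 each; log2 change 0.94, SE 0.22, adjusted p = 0.0169, edgeR). None of the 6 passed in KO or DKO cells in either tool, where 2 and 0 had an unadjusted p below 0.05.

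Of 17 other genes whose products have been reported as S6 kinase substrates, 2 passed with passage in each set and none in KO or DKO cells in edgeR; 1 did so in DKO cells in DESeq2, and 0 and 3 had an unadjusted p below 0.05. The passage counts were near the 12.9% and 13.2% of all genes. Srpk2, a splicing factor kinase, fell by 0.94 (SE 0.25, adjusted p = 0.0293) and Uri1, a prefoldin-like phosphatase inhibitor, by 0.46 (SE 0.14, adjusted p = 0.0479, edgeR) in the S6K1 set. In the S6K1/S6K2 set Mdm2, the ubiquitin ligase of p53, rose from 130 ± 39.6 to 257 ± 27.6 CPM (SD, n = 4 each; log2 change 0.99, SE 0.19, adjusted p = 0.00536), and Cad, the enzyme that starts pyrimidine synthesis, fell by 0.45 (SE 0.13, adjusted p = 0.0376, edgeR). Median changes of the 17 genes were 0.13 in KO and 0.07 in DKO cells, beside -0.01 over all genes in both.

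Upstream, 2 of 11 genes of mTORC1 and its regulators passed with passage in the S6K1 set, near the 12.9% of all genes, and 0 of 11 did so in the S6K1/S6K2 set in edgeR (1 in DESeq2, 2 at an unadjusted p below 0.05). Rheb, the GTPase that activates mTORC1, rose by 0.74 (SE 0.22, adjusted p = 0.0413), and Tsc1, part of the complex that turns Rheb off, fell by 0.57 (SE 0.17, adjusted p = 0.0482, edgeR). None of the 11 passed in KO or DKO cells in edgeR or DESeq2, with 0 at an unadjusted p below 0.05. None of 13 genes of cap-dependent translation passed in any of the 4 comparisons in edgeR; 1 did so in DKO cells in DESeq2, where 2 had an unadjusted p below 0.05.

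Rps6 can be set beside the other ribosomal protein genes, 78 of which, Rps6 among them, were tested. With passage in the S6K1/S6K2 set 76 of the 78 had a positive change, with a median of 0.40 beside 0.01 over all genes, and 1 of them, Rpl7, passed the threshold (17 at an unadjusted p below 0.05; log2 change 0.54, SE 0.16, adjusted p = 0.0478, edgeR). In the S6K1 set 32 of the 78 were positive, the median was -0.06, and Rpl15 was the 1 that passed (log2 change 0.51, SE 0.14, adjusted p = 0.0316, edgeR). Rps6 itself changed by 0.12 and 0.10 in these comparisons. None of the 78 passed in KO or DKO cells in edgeR, where the medians were -0.16 and 0.00, 1 and 0 had an unadjusted p below 0.05, and DESeq2 called 1 and 0.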

How the data were processed

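The authors prepared stranded poly(A) libraries and sequenced single-end reads of 50 bases. The deposited table holds raw counts of reads per gene, not normalized. The study's methods name TopHat, mm9 and HTSeq, whereas the submitters' processing notes list STAR 2.7.1a, mm10, CASAVA and DESeq2 1.28.1; 22812 of the 55401 identifiers are absent from GENCODE vM1, the annotation of the older build. Gene coordinates are therefore RefSeq GRCm38.p6, while lengths, transcripts and window searches use GENCODE vM1 on NCBIM37.

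The 3 groups of a MEF set were fitted together with edgeR 4.0.16 in R 4.3.3 (TMM scaling, filterByExpr, robust quasi-likelihood F test, Benjamini-Hochberg adjustment), and differences between sets over all 22 libraries. The SE is the change divided by the root of F, and 95% intervals use the t distribution. Shares were compared with exact permutation tests (SciPy). Alternatives were DESeq2 1.42.0, RLE scaling, no filter, fits on 2 or 6 groups, a Y-linked covariate, leaving out each library, and other lengths for the share, of which the longest coding transcript was added after seeing the data. The fits were tested on simulated data, in which the changed genes were drawn from those above a minimum mean count. Of 100 such genes changed by 1 on the log2 scale, 39.0% were recovered in the KO comparison (13912 genes). In the DKO comparison (14114 genes) 55.0% were. Recovery of genes with fewer counts was not measured.

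The 10 genes and all lists were chosen with earlier results of these data known. Named from other lists were up to 3 genes past the threshold per direction and comparison, and the 3 genes closest to each S6 kinase by correlation. Replicates are separate cultures as labelled; the labels tie no culture to an embryo or litter, so early and late cultures may share embryos, and p-values measure only the spread between these cultures, which may in part be technical. No 2 libraries of a group agreed within sampling noise (chi-square per gene at least 20.6).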

Additional observations from a re-analysis of the deposited data

Results flagged for a closer look

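In early WT cultures of the S6K1 set Rps6 was 798 CPM in replicate 2 and 534 to 556 CPM in the other 3, and the gap took 0.915 of the range of the group, above the limit for 4 values. Chance flags about 1 in 20 groups, and this was the 1 found in 44 groups tested. The loss of Rps6kb2 differed between DKO and KO cells by -4.24 on the log2 scale, as the genotypes define it.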

How the results depend on the processing

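Of 1050 recomputed values, 932 kept direction and side of the threshold, 34 kept direction but lost the call, 67 changed sign and 17 were counts that moved by over 1.5 times. The number of the 10 genes past the threshold with passage in the S6K1 set was 3, and it was 1 without a filter or in a fit on the 2 groups and 1 to 2 without any 1 library. In the S6K1/S6K2 set it was 1, and it was 0 without a filter, in a fit on all 6 groups or with the Y-linked covariate, and 0 to 1 without any 1 library. The calls on Rps6kb1 in KO and DKO cells, Rps6kb2 in DKO cells and in the genotype difference, and Rps6ka1 with passage in the S6K1 set and in DKO cells were kept in every alternative run. The S6K1 set call of Rps6kb1 with passage had an adjusted p of 0.0586 with RLE scaling, 0.0855 without a filter and 0.0511 on 2 groups (edgeR). That of Rps6kb2 in the same set had 0.0663 without a filter and 0.0715 on 2 groups (edgeR). The passage call of Pdcd4 in the S6K1/S6K2 set had 0.0627 without a filter, 0.0672 on all 6 groups and 0.0567 with the Y-linked covariate (edgeR). The cause was not tested.

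Over all genes, 6 genes differed in KO cells, against 261 in DESeq2, 43 without a filter, 37 with the Y-linked covariate and 16 on all 6 groups, and 2 to 9 without any 1 library. With passage in the S6K1 set 1827 genes became 3288 with the Y-linked covariate, and in the S6K1/S6K2 set 1892 became 2845 in DESeq2, 885 and 911 without early replicates 1 and 2, and 1103 and 1146 without late replicates 2 and 3. In DKO cells 686 became 1206 in DESeq2, 97 without DKO replicate 2, 157 without DKO replicate 3, 328 without late WT replicate 2 and 456 without late WT replicate 3. The passage difference went from 106 to 222 and the genotype difference from 1 to 64 in DESeq2, and the latter to 3 without a filter, 5 without DKO replicate 1, 3 without late WT replicate 1 of the S6K1 set and 2 without late WT replicate 3 of the S6K1/S6K2 set.

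The changes of sign were in values not past the threshold. With the Y-linked covariate the log2 values were -0.21 for Rps6kb1 (genotype difference), 0.0006 for Rps6 (KO), 0.0021 for Rps6 (passage difference), 0.10 for Eif4b (KO), -0.012 for Eif4b (genotype difference), -0.0127 for Pdcd4 (genotype difference), -0.0577 for Eef2k (DKO), -0.23 for Rps6ka2 (KO), -0.0827 for Rps6ka3 (KO), -0.27 for Rps6kc1 (KO) and 0.0736 for Rps6kc1 (genotype difference). The KO change of Eif4b was 0.0065 without a filter and 0.0008 on all 6 groups. Leaving out 1 library at a time gave log2 values from -0.14 to 0.17 for Rps6kb1 (genotype difference), from -0.0164 to 0.23 for Rps6 (passage, S6K1/S6K2 set), from -0.17 to 0.0418 for Rps6 (DKO), from -0.18 to 0.10 for Rps6 (passage difference), from -0.15 to 0.0964 for Eif4b (KO), from -0.12 to 0.0336 for Eif4b (passage difference), from -0.0537 to 0.18 for Pdcd4 (genotype difference), from -0.0607 to 0.0999 for Eef2k (passage, S6K1 set), from -0.0845 to 0.23 for Eef2k (KO), from -0.0934 to 0.17 for Eef2k (DKO), from -0.18 to 0.0983 for Eef2k (genotype difference), from -0.0887 to 0.14 for Rps6ka2 (passage, S6K1/S6K2 set), from -0.0148 to 0.29 for Rps6ka3 (KO), from -0.0973 to 0.16 for Rps6ka3 (passage difference), from -0.0525 to 0.12 for Rps6kc1 (KO), from -0.0929 to 0.0383 for Rps6kc1 (DKO) and from -0.14 to 0.0492 for Rps6kc1 (genotype difference). The passage change in the share of Rps6kb2 in the S6K1 set ran from -4.49 to 0.635 percentage points, the latter without late WT replicate 2.

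No paired analysis was possible because the labels name no litter or batch that same-numbered cultures share, and replicates were numbered within groups. Depth limits Rps6kb2 in DKO cells, at 5 to 22 counts. Gene-level counts do not show which exons of a deleted gene were read. KO and DKO groups had 3 cultures, and no early culture of either was analysed here.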
